A study of Arabidopsis thaliana with 6 samples.

Results

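PLAC8 domain proteins are small, cysteine-rich membrane proteins, and in Arabidopsis thaliana several of them carry the name PLANT CADMIUM RESISTANCE (PCR). The genes described here are 10 loci of this family given as a fixed list of locus codes: AT3G18450, AT3G18460, AT3G18470, AT1G14870 (PCR2), AT1G14880 (PCR1), AT1G49030, AT1G58320, AT1G68610 (PCR11), AT1G68630 and AT5G35525. A locus counted as measured where the array's annotation assigned a probe set to that gene alone, which left 4 of the 10 loci, among 13355 genes with such a probe set in all. The measured loci were AT3G18450, AT3G18460, AT1G49030 and AT1G68630, with 1 probe set each. PCR1, PCR2, PCR11, AT3G18470, AT1G58320 and AT5G35525 had no such probe set and are not analysed here. Below, a gene's own probe set means one assigned to it alone by this annotation. Of the 22746 probe sets tested, 9233 were assigned no single gene. A gene called not measured may therefore still have a probe set on the array.

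As background, PCR1 was identified as a gene that lowers the cadmium content of cells, and PCR2 moves zinc out of root cells and takes part in the transfer of zinc to the shoot. Relatives of the family in other plants, such as the tomato fruit weight gene FW2.2, are known for effects on cell number and organ size. The reference gene table used here names PCR1, PCR2 and PCR11 and gives the 4 measured loci a locus code only, so no transport substrate is stated for them.

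Expression was measured in roots of hydroponically grown Arabidopsis, ecotype Col 0, on 6 Affymetrix ATH1 arrays. In 3 jars the medium was replaced by 0.125 mM KAuCl4, a soluble gold(III) salt, in water ("gold"), and 3 jars received no gold. All plants had grown for 14 days, and a solution pH of 5.7 is recorded for all 6 samples. The labels call the jars without gold untreated and the design text gives them water, and the exposure is 24 h in the sample labels but 6 h in the treatment protocol, so neither the controls' handling nor the time is settled. Each jar held many plants, whose roots make up 1 sample, so a lower value can stand for less RNA per cell or for fewer cells of the type that holds it, which cannot be told apart.

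Values are on a log2 scale (base read as 2) and had been centred by the authors, so that each probe set has a median of 0 over the 6 arrays. They give differences between arrays and no expression levels, so one gene's level cannot be set against another's, nor could the root label be checked against marker levels. Where the groups do not overlap, the highest value of the lower group and the lowest value of the higher group mirror each other around 0 by construction. One array stood apart in 1 of 2 control transcripts compared: the centred value of the 5' GAPDH probe set was -4.36 on no gold replicate 1 and that of the 3' probe set 0.34, a 5' minus 3' difference of -4.70, against -0.59 to 0.54 on the other 5 arrays. The actin difference on that array was -0.26, against -0.20 to 0.17 on the others. The series' description gives other values for this array, with large negative differences for both actin and GAPDH. Those could not be rebuilt from the probe sets used here, so the array may stand apart in both controls. The spread of values within an array was widest for gold replicate 2 (SD 0.717) and narrowest for gold replicate 1 (SD 0.371).

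Gold was accompanied by lower transcript of 2 of the 4 measured PLAC8 loci, AT3G18450 and AT1G49030. AT3G18450 fell by 4.27 on the log2 scale, a 19.3-fold lower signal, and AT1G49030 fell by 2.60, a 6.08-fold lower signal. AT3G18460 and AT1G68630 did not pass the test, at changes of -0.33 and 1.32. Over all 22746 probe sets tested, 20.2% changed in either direction at a limma adjusted p below 0.05, 10.9% were lower with gold and 9.32% higher. The median change was -1.47 over the 4 loci and -0.04 over all probe sets. The gold and no gold values did not overlap in any of the 4 loci, as in 37.2% of all probe sets. With 4 loci, these counts and the median of -1.47 describe the loci alone. The loci were chosen with earlier results of these data known.

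**Figure D1:**
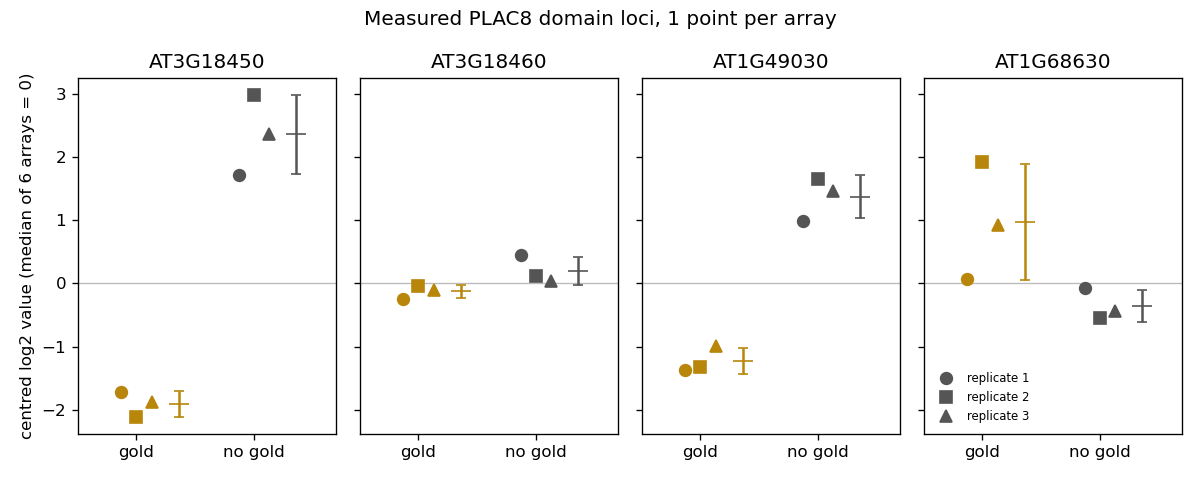
Centred log2 values of the 4 measured PLAC8 domain loci in the 3 gold arrays (left of each panel, brown) and the 3 no gold arrays (right, grey), with 1 point per array; the cross and bar beside each group give its mean and SD. AT3G18450 and AT1G49030 show wide gaps between the groups, AT3G18460 stays near 0 on all arrays, and the gold values of AT1G68630 are spread between 0.07 and 1.92.

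AT3G18450 had centred log2 values of -1.72, -2.12 and -1.89 in gold replicates 1, 2 and 3, against 1.72, 2.98 and 2.37 in no gold replicates 1, 2 and 3. All 3 gold values lay below all 3 no gold values, with a gap of 3.44 between the nearest arrays. The means were -1.91 ± 0.20 with gold and 2.36 ± 0.63 without (SD, n = 3 each), a change of -4.27 ± 0.307 (SE; 95% interval -4.98 to -3.56; limma adjusted p = 9.87e-05). This was the fall of rank 23 among the 22746 probe sets. The 3 no gold arrays differed more from each other than the 3 gold arrays did: their SD was larger than that of 94.4% of probe sets, while the SD of the gold arrays was larger than that of 50.9%. No gold replicate 1, the array with the low centred 5' GAPDH value, had the lowest of the no gold values, and without it the change was -4.59 (limma adjusted p = 0.000133).

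AT1G49030 had centred log2 values of -1.37, -1.33 and -0.99 in gold replicates 1, 2 and 3, against 0.99, 1.66 and 1.47 in no gold replicates 1, 2 and 3. Again the groups were apart, by 1.99, and again no gold replicate 1 was the lowest of its group. The means were -1.23 ± 0.21 with gold and 1.37 ± 0.34 without (SD, n = 3 each), and the change was -2.60 ± 0.215 (SE; 95% interval -3.10 to -2.11; limma adjusted p = 0.000185). It was the fall of rank 168 among all probe sets. Without no gold replicate 1 the change was -2.79 (limma adjusted p = 0.000247).

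The fall of AT3G18450 was larger than that of AT1G49030 in size. Within single arrays the value of AT3G18450 minus that of AT1G49030 was -0.35, -0.79 and -0.89 with gold, against 0.73, 1.33 and 0.90 without. The differences did not overlap between the groups, and their means were -0.68 with gold and 0.99 without, a difference of -1.66 ± 0.245 (SE, n = 3 each). The exact two-sided permutation p was 0.1, the smallest that 3 arrays against 3 can give. This pair was chosen after the values were seen.

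AT3G18450, AT3G18460 and AT3G18470 lie next to each other in the gene order of the reference table, and the first 2 of them were measured. AT3G18460 had centred log2 values of -0.24, -0.03 and -0.11 in gold replicates 1, 2 and 3, against 0.45, 0.12 and 0.03 in no gold replicates 1, 2 and 3. The gold values lay below the no gold values by as little as 0.07. The change was -0.33 ± 0.169 (SE, n = 3 each; 95% interval -0.72 to 0.07; limma adjusted p = 0.24), so a fall of the size seen in AT3G18450 lies far outside its interval. Centring removed the levels, so whether this probe set lies near background, where a fall could not show, is unknown.

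The difference between these neighbours was tested directly. AT3G18450 minus AT3G18460 was -1.48, -2.09 and -1.78 in gold replicates 1, 2 and 3, against 1.27, 2.87 and 2.34 in no gold replicates 1, 2 and 3. The group means of this difference were -1.78 ± 0.30 with gold and 2.16 ± 0.81 without (SD, n = 3 each), a difference of -3.94 ± 0.50 (SE), and the values of the groups did not overlap (exact two-sided permutation p = 0.1, the smallest possible). On the other side of the pair, AT3G18430, 2 places before AT3G18450, was at 0.04 ± 0.192 (SE, n = 3 each; limma adjusted p = 0.938). The other genes within 3 places of AT3G18450 had no probe set assigned to them alone. Whether the probe sets of AT3G18460 and AT3G18430 lie near background is unknown.

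AT1G68630 was the only measured member with higher values in the gold arrays, and it did not pass the test. Its centred log2 values were 0.07, 1.92 and 0.92 in gold replicates 1, 2 and 3, against -0.07, -0.55 and -0.44 in no gold replicates 1, 2 and 3. The gold arrays lay above the no gold arrays by only 0.15 at the nearest, and they were far apart among themselves, with an SD of 0.92 that exceeded that of 98.4% of probe sets. The change was 1.32 ± 0.419 (SE, n = 3 each; 95% interval 0.35 to 2.30 for this gene alone; limma adjusted p = 0.0632). It passed with quantile normalization (1.14, limma adjusted p = 0.0172) and without gold replicate 1 (1.77, limma adjusted p = 0.00813), and the change was 0.85 without gold replicate 2, the array with its highest value.

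AT1G68630 and PCR11 are separated in gene order by 1 gene, AT1G68620, which was looked at after the values were seen. AT1G68620 rose by 4.20 ± 0.182 (SE, n = 3 each; limma adjusted p = 1.75e-05). The other measured genes within 3 places of AT1G68630 did not pass: AT1G68600, before it, was at -0.12 ± 0.213 (limma adjusted p = 0.782) and AT1G68650, after it, at -0.52 ± 0.206 (limma adjusted p = 0.125). Around AT1G49030, the measured genes within 3 places, AT1G49010, AT1G49015 and AT1G49050, were at -0.44, -0.24 and 0.41 and did not pass (limma adjusted p from 0.178 to 0.509).

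A further 11 loci were listed as PLAC8 domain genes from general knowledge, since the gene table used here holds no domain annotation, and 8 of them had a probe set of their own. Of these, 1 rose with gold, none fell and 7 did not pass, where 9.32% of all probe sets were higher and 10.9% lower. AT2G37110 had centred log2 values of 0.39, 0.41 and 0.74 in gold replicates 1, 2 and 3, against -0.76, -0.39 and -0.41 in no gold replicates 1, 2 and 3. The groups were apart by 0.79, and the gene rose by 1.04 ± 0.18 (SE, n = 3 each; limma adjusted p = 0.00579), about 2.05-fold.

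The other 7 listed loci did not pass the test. Their changes lay between -0.44 for AT1G11380 and 0.30 for AT4G23470, with AT1G52200 at -0.35, AT2G40935 at -0.14, AT5G51400 at 0.04, AT2G45010 at 0.26 and AT5G05350 at 0.26. AT4G23470 was the only one of these 7 whose groups did not overlap (0.16, 0.19 and 0.08 with gold, against -0.27, -0.08 and -0.10 without; limma adjusted p = 0.211). The groups did not overlap in 37.2% of all probe sets, so this does not set AT4G23470 apart. AT1G11380 had values of 0.05, -0.23 and -0.05 with gold, against -0.36, 0.64 and 0.81 in no gold replicates 1, 2 and 3. No gold replicate 1 was the lowest array there, and without it the change was -0.80 and passed (limma adjusted p = 0.0134). The 8 loci had a median change of 0.15, against -0.04 over all probe sets.

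**Figure D2:**
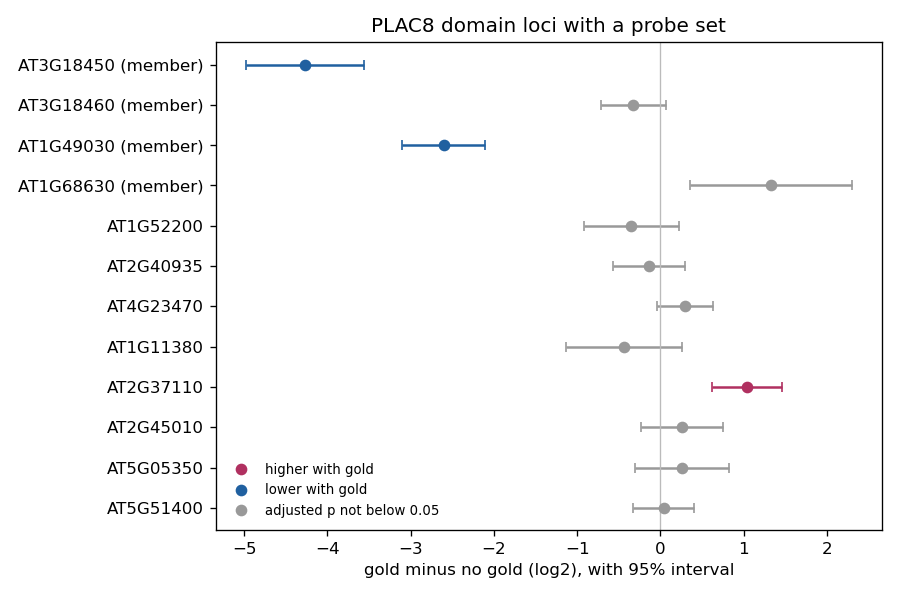
Gold minus no gold (log2, horizontal axis) for the 4 measured members and the 8 other measured PLAC8 domain loci (vertical axis), with 95% intervals of the limma fit for each gene alone; colour gives the call at an adjusted p below 0.05. AT3G18450 (-4.27) and AT1G49030 (-2.60) lie far left, AT2G37110 (1.04) is the one locus called higher, and the other loci lie between -0.44 and 1.32.

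Zinc and cadmium handling in roots rests on uptake carriers, pumps and carriers that load metals into the vacuole or out of the cell, chelators such as metallothioneins, and the bZIP factors that switch on zinc uptake genes when zinc is short. Of 51 genes listed for these roles, 9 had a probe set of their own. Of these 9, 1 rose, 4 fell and 4 did not pass, with a median change of -0.51. MAT3, a methionine adenosyltransferase that has no such role, was listed with the chelators in error and was not measured. The 1 gene that rose, MTP11, is a manganese carrier, and the role of each listed gene in zinc or cadmium handling was not checked. The counts thus describe the list alone. Over all probe sets 9.32% were higher and 10.9% lower. Among regulators, bZIP19, a sensor of zinc deficiency, had centred log2 values of -0.40, -0.95 and -0.60 in gold replicates 1, 2 and 3, against 0.50, 0.40 and 0.57 in no gold replicates 1, 2 and 3. The groups were apart by 0.80, and bZIP19 fell by 1.14 ± 0.183 (SE, n = 3 each; limma adjusted p = 0.004). BZIP24, of the same list, was at -0.51 ± 0.168 and did not pass (limma adjusted p = 0.0716). A role of BZIP24 in zinc sensing was not checked, and bZIP23, also listed, was not measured.

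Among carriers, AT3G58060, listed with the cation diffusion facilitators, fell by 3.78 ± 0.355 (SE, n = 3 each; limma adjusted p = 0.000332), a change between those of AT3G18450 and AT1G49030. The metals carried by AT3G58060, and by AT1G16310 and AT1G79520 of the same list, were not checked. The fall of AT3G58060 is thus not a result for a known zinc or cadmium carrier. The values of AT3G58060 were -1.50, -1.44 and -1.42 in gold replicates 1, 2 and 3, against 1.42, 2.65 and 2.89 in no gold replicates 1, 2 and 3. No gold replicate 1 was again the lowest of its group. ZIP9, an uptake carrier of the ZIP family, fell by 1.14 ± 0.217 and ZIP6 of the same family was at 0.10. MTP11, a manganese carrier, rose by 0.99 ± 0.216 (limma adjusted p = 0.0156), a call lost without gold replicate 2 (0.0539) or gold replicate 3 (0.0729), while AT1G16310 and AT1G79520 of the same list were at -0.24 and -0.19 and did not pass. The metallothionein gene MT1C, the single measured chelation gene, fell by 1.81 ± 0.236 (limma adjusted p = 0.00151). No gold replicate 1 was not low throughout, as it was the highest of its group for AT3G18460, AT1G68630, ZIP9 and MT1C.

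**Figure D3:**
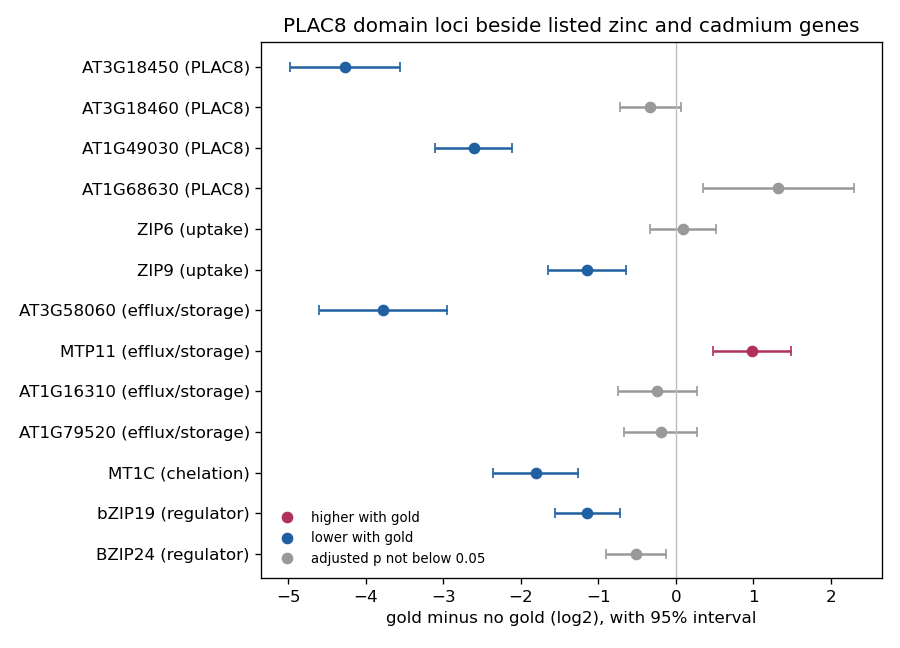
Gold minus no gold (log2, horizontal axis) with 95% intervals for each gene alone, for the 4 measured PLAC8 domain loci and the 9 measured genes listed for uptake, efflux or storage, chelation and regulation of zinc and cadmium. The lower calls run from -4.27 (AT3G18450) to -1.14 (bZIP19 and ZIP9), and MTP11 (0.99), a manganese carrier, is the only gene called higher. The metals carried by AT3G58060, AT1G16310 and AT1G79520 were not checked.

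The genes with values most like those of the lower members were found among 13343 genes outside the family, by the root mean square difference over the 6 arrays. UGT72E1, a glucosyltransferase of lignin precursors, was nearest to AT3G18450, at 0.0744 log2 units. Its values were -1.71, -2.12 and -2.02 in gold replicates 1, 2 and 3, against 1.71, 2.87 and 2.34 in no gold replicates 1, 2 and 3. On each array the values of the 2 genes were thus close, also among the no gold arrays, where AT3G18450 was spread widely. AT5G19970 (0.312) and AT2G19970 (0.339) came next. For AT1G49030 the nearest genes were AT3G61410 (0.168), AT4G20820 (0.201) and AT1G78260 (0.245), each with lower values in every gold array than in any no gold array. The 6 genes were picked for this likeness, so their falls are a description.

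Root hair markers and a shoot marker were lower with gold, as AT3G18450 and AT1G49030 were. All 3 measured root hair markers of 8 listed (EXPA7, EXPA18 and AT1G30870) fell, at changes from -2.53 to -2.34. Their mean centred value ran from -1.75 to -0.57 with gold, against 0.57 to 1.44 without. Of all probe sets, 10.9% were lower with gold, and in 37.2% the groups did not overlap. The marker lists were chosen with earlier results of these data known, so these falls describe the listed genes alone. Of 7 shoot markers listed, 2 were measured: RCA fell by 1.49 and PRK was at -1.48 without passing (limma adjusted p = 0.0737), and at -0.86 without no gold replicate 2, the array with its highest value. Their mean ran from -0.75 to -0.28 with gold, against 0.50 to 1.69 without. SWEET11, the 1 measured of 5 phloem markers, was at -0.81 without passing (limma adjusted p = 0.0759). None of the 7 endodermis, 6 xylem or 4 root cap markers had a probe set assigned to it alone by the annotation used. The part of these cell types in the falls of AT3G18450 and AT1G49030 was not tested.

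Both falls held under every alternative run. Across 10 alternatives, AT3G18450 ranged from -5.10 to -3.96 (limma adjusted p up to 0.00136) and AT1G49030 from -3.15 to -2.46 (up to 0.00152). AT3G18460 ranged from -0.41 to -0.20 and passed in none of the 10 (limma adjusted p from 0.229 to 0.424).

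**Figure D4:**
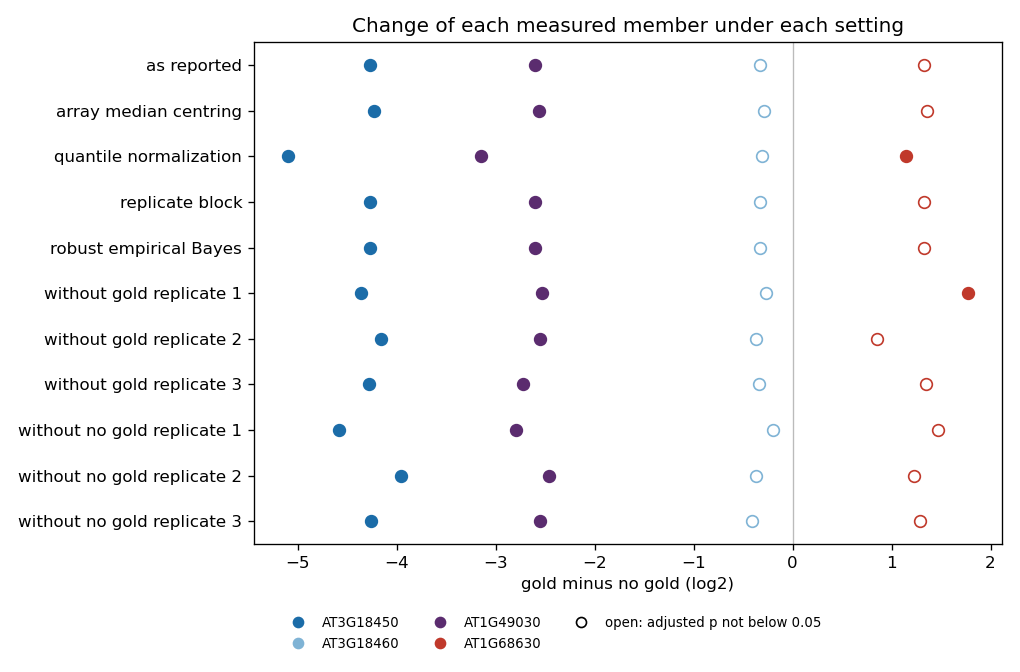
Gold minus no gold (log2, horizontal axis) for each of the 4 measured PLAC8 domain loci under the reported fit and 10 alternatives (vertical axis); filled points have a limma adjusted p below 0.05 and open points do not. AT3G18450 and AT1G49030 are filled in every row, AT3G18460 in none, and AT1G68630 is filled with quantile normalization (1.14) and without gold replicate 1 (1.77).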

How the data were processed

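The authors deposited 1 table of log2 values for 22810 probe sets on 6 arrays, centred so that every row has a median of 0 within 5e-07. Base 2 was assumed for the logarithm. Probe summarisation and between-array scaling: not given in the sources used here. Per the labels' protocols, RNA was purified on RNeasy columns and labelled with the MessageAmp II kit. The test was limma 3.58.1 under R 4.3.3 on 22746 probe sets, without the 64 control sets (lmFit and eBayes, gold minus no gold, two-sided, Benjamini-Hochberg over all probe sets, threshold 0.05), with no filter and no further scaling. Probe sets were named from GEO's platform annotation through gene IDs of the TAIR10.1 gene table: 13513 carried 1 gene, 503 several, and 9233 of those tested no single gene. Since no genome build is named for the arrays, coordinates are left out.

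The members and lists were chosen with earlier results of these data known. Named genes were all measured members and listed PLAC8 loci, up to 4 passing genes per other list by size of change or the lowest p where none passed, and the 3 nearest patterns of each lower member. Further metal and marker genes, and flanking genes, were named beyond that rule. The design text calls the jars replicates, so p-values measure the spread between jars, and precision is limited by having 6 arrays. A planned filter on dim probe sets needs levels and was not run, and the planned promoter motif count was not run because no sequences were used here. Data were also simulated for gold against no gold (22746 probe sets), with independent normal noise of the real residual spread. In these, 42 of 100 probe sets changed by 1 on the log2 scale and 89 of 100 changed by 2 were called in the right direction. A further 7 unchanged ones were called. The simulated share of changed probe sets was far below the 20.2% called in the real data. The adjusted p threshold therefore acts differently there, and these shares are not the power of the real comparison. Alternatives were array median centring, quantile normalization, the replicate block, robust empirical Bayes, leaving out each array, and averaging the probe sets of a gene. Tables and figures used matplotlib 3.10.9, scipy 1.17.1, numpy 2.4.6 and pandas 2.3.3 in Python 3.11.15.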

Additional observations from a re-analysis of the deposited data

How the results depend on the processing

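For the 4 measured PLAC8 loci, 2 were lower under every alternative run, the replicate block included, and 1 (AT1G68630) was higher with quantile normalization and without gold replicate 1, so the count of higher members ran from 0 to 1 with arrays left out. Each measured member has 1 probe set, so the mean over probe sets changed nothing. AT3G18450 minus AT3G18460 ran from -4.38 to -3.59 with arrays left out, an alternative chosen after the data were seen. Over all probe sets, leaving out 1 array gave 1262 to 2432 higher and 1258 to 2717 lower, with 1262 higher and 1258 lower without gold replicate 3, 1625 lower without gold replicate 2 and 1565 lower without no gold replicate 2. These fits hold fewer arrays; why arrays differ in this was not tested. In the other PLAC8 and metal lists together, 1 to 2 genes were higher and 4 to 5 lower with arrays left out, with 1 higher without gold replicate 2 or 3. Uncalled values turned sign for AT5G51400, which ran from -0.053 (without no gold replicate 1; -0.015 without gold replicate 1) to 0.10, and ZIP6, which ran from -0.045 (without gold replicate 1) to 0.18. Of 27 genes, PRK passed with the replicate block (0.0256), SWEET11 and PRK passed without no gold replicate 3, and SWEET11 passed without gold replicate 2 (0.0423). The replicate block gave 3949 called probe sets, and 3739 of these are among the 4601 called without it. Deviations from the group mean correlated at -0.11, -0.25 and 0.28 between arrays that share a number, and some arrays correlated best with another number, so the numbers were not taken to pair the jars. Array median centring and quantile normalization gave a median change over all probe sets of -0.0073 and 0.0039, against -0.0446 as reported. Centring removes expression levels, so which probe sets lie near background is unknown. Groups of 3 arrays are too small for the outlier test.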
